A study of Homo sapiens with 4 samples.

Results

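A549 cells, a human lung adenocarcinoma line, were compared between batch 2 and batch 1 of a culture experiment, with both culture conditions represented in each batch. The experiment grew the cells in 2D on plastic for 4 days either with respiratory motion (RM+), a cyclic fall and return of the air pressure in a sealed chamber, or without it (RM-), and sequenced poly(A) RNA from each culture. All 4 libraries of the series entered the comparison: the RM+ and RM- libraries of batch 2 against the RM+ and RM- libraries of batch 1. All were the same wild-type line in the same serum-containing medium, and the batch is only a number in the sample labels. No source used here says whether a batch was a separate seeding, a separate day or a separate preparation of RNA, so a difference between cultures and a difference between preparations cannot be told apart. The cultures held a single tumour line on plastic with no stroma, vessel or immune cell, and were taken up with trypsin before RNA was extracted.

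Of the 30843 genes in the deposited table, 17632 reached a normalized count of at least 10 in at least 2 libraries and were tested. A normalized count is the number of reads of a gene divided by a factor that brings the libraries to a common depth. The libraries held between 18754356 and 20412283 reads assigned to genes. With 2 libraries a batch, each gene was tested with limma on log2(normalized count + 1), with the condition (RM+ or RM-) as a block, so that batch 2 RM+ was set against batch 1 RM+ and batch 2 RM- against batch 1 RM-. A gene is called where its p-value, adjusted by Benjamini-Hochberg over all genes tested, was under 0.05. All differences are log2 differences on that scale, batch 2 minus batch 1, given with their standard error (SE) where one is printed.

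A549 cells have a mutated KEAP1 and carry a constitutively high NRF2 programme, so that aldo-keto reductases and aldehyde dehydrogenases are abundant in them. The groups of transcripts that the comparison turned on are of another kind. Mitochondrial DNA encodes a small set of respiratory chain subunits, rRNAs and tRNAs that are transcribed as long polycistronic precursors inside the organelle. Immediate-early genes encode short-lived mRNAs, mainly for transcription factors, that respond within minutes to growth factors, stress or handling. MALAT1 and NEAT1 are long noncoding RNAs that stay in the nucleus, at speckles and paraspeckles.

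The markers of the cell line were at like levels in both batches. The 10 epithelial and A549 markers summed to 395857 and 378384 normalized counts in batch 2 (RM+ and RM-) against 381676 and 377547 in batch 1, and 0 of the 10 were called, with a median difference of 0.00. ALDH1A1, an aldehyde dehydrogenase, AKR1B10, an aldo-keto reductase, and the keratins KRT8 and KRT18 were among the most abundant of them. EPCAM, an epithelial adhesion molecule, was low at 45.4 and 67.9 normalized counts in batch 2 against 47.8 and 45.4 in batch 1. Most markers of other cell types were too low to test. That held for all 8 endothelial markers, while 2 of 9 fibroblast markers (COL1A1 and THY1) and 2 of 10 immune markers (CD14 and ITGAM) were tested. None of these 4 was called. The fibroblast list summed to 154 and 156 normalized counts in batch 2 (RM+ and RM-) against 174 and 168 in batch 1. The immune list summed to 271 and 234 in batch 2 against 268 and 255 in batch 1.

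Between the batches, 368 genes were called (2.09% of those tested), 60 of them higher in batch 2 (0.34%) and 308 lower (1.75%). The genes lower in batch 2 included 12 of the 13 mitochondrially encoded mRNAs, the nuclear lncRNAs MALAT1, NEAT1 and MEG3, the immediate-early genes FOSB, NR4A1 and NR4A2, and the splicing-related genes LENG8 and DDX39B. The genes higher in batch 2 changed less and included the lactate dehydrogenase subunit LDHB, ribosomal protein genes and small subunits of the nuclear-encoded respiratory chain. The median difference over all genes tested was 0.02, with quartiles of -0.12 and 0.11. Of the 368, 45 differed by more than 1 on the log2 scale (6 higher, 39 lower) and 180 by less than 0.5. When the libraries were scaled to the total of nuclear-encoded genes instead, 22 genes were higher and 407 lower, so that 5.13% of the calls were higher against 16.3% with the deposited scaling.

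These calls lean on a spread that was pooled across genes. Each gene had 1 residual degree of freedom, and limma estimated the prior degrees of freedom as infinite. Without the condition as a block 0 genes were called, with 765 at an unadjusted p under 0.05 against 2358 with it. Leaving out 1 library at a time, which also removes the block, gave 9 calls without batch 2 RM+, 59 without batch 2 RM-, 3 without batch 1 RM+ and 0 without batch 1 RM-. With a library left out the batches hold unequal shares of RM+ and RM-, so a difference between the conditions enters those values. Unless another setting is named beside it, a count of calls or an adjusted p comes from the blocked comparison of all 4 libraries. An exact permutation of the batch labels within the conditions cannot give a 2-sided p below 0.5, and whether the batch difference itself changed with RM cannot be tested with 1 library in each cell of the design.

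The RM+ pair and the RM- pair hold no library in common, so the direction of a gene can be read in each. Of the 368 genes called, 363 had the same sign in both pairs, against 58.6% of all genes tested, and 339 had batch 2 values that did not overlap the batch 1 values, against 33.9% of all genes tested. Both counts are partly fixed by the test, which favours such genes. Among the 12101 genes that averaged 100 or more normalized counts, the batch difference in RM+ and that in RM- had a Pearson correlation of 0.32 and a Spearman correlation of 0.24 across genes, which are not independent replicates. The standard deviation of the batch difference over these genes was 0.20 in each condition, beside 0.25 for RM+ minus RM- in batch 2 and 0.22 in batch 1. The genes lower in batch 2 had a median difference of -0.65 in RM+ and -0.43 in RM-, and those higher 0.25 in RM+ and 0.35 in RM-.

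**Figure D1:**
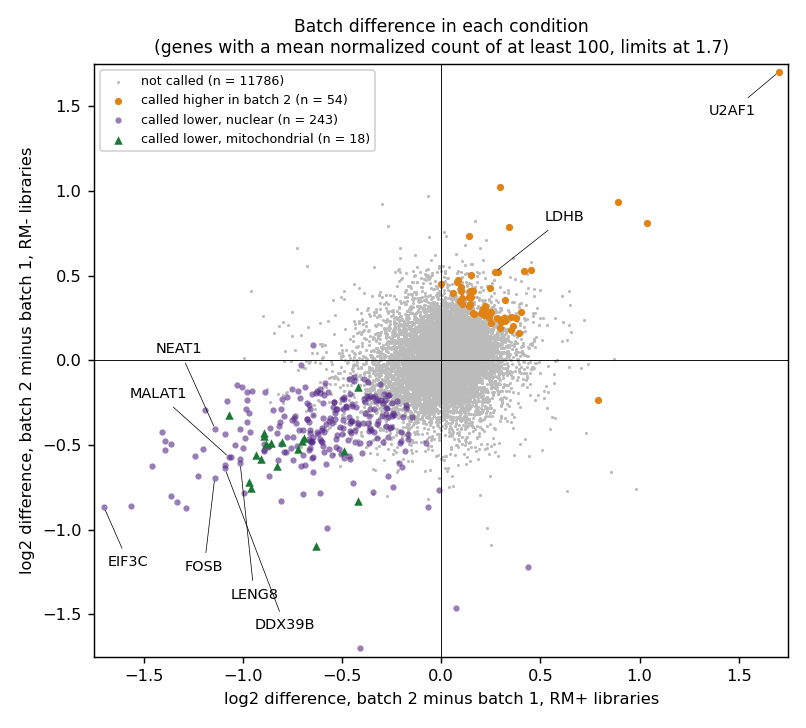
Each point is a gene that averaged 100 or more normalized counts, plotted by its log2 difference, batch 2 minus batch 1, in the RM+ libraries (x axis) and in the RM- libraries (y axis), with values beyond 1.7 drawn at the limit. Genes called lower in batch 2 (purple, mitochondrial ones as green triangles) lie mostly in the lower left, further out along the RM+ axis, and genes called higher (orange) lie mostly close to the centre in the upper right, with U2AF1 at the limit of both axes.

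Mitochondrially encoded transcripts were lower in batch 2 as a group. All 13 mRNAs were lower in batch 2 in both conditions, 12 of them passed the test, and the median difference was -0.69 (-0.83 in RM+ and -0.52 in RM-), against 0.02 for all genes. Both rRNAs and 4 of the 8 mitochondrial tRNAs tested were also called lower, which makes 18 of 23 mitochondrial genes. Of all genes tested, 1.75% were called lower. Reads listed at a tRNA gene cannot be told apart here from reads of a longer precursor, so the tRNAs are not separate evidence. In a bulk culture, fewer cells of a kind and less RNA per cell cannot be told apart. The whole mitochondrial share of assigned reads was 2.57% and 3.69% in batch 2 (RM+ and RM-) against 4.56% and 5.36% in batch 1. The batches did not overlap, and within each batch the RM+ library had the smaller share.

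MT-ND1, a core subunit of complex I, had 23368 and 30877 normalized counts in batch 2 (RM+ and RM-) against 45695 and 50711 in batch 1 (difference -0.84, SE 0.07, adjusted p = 1.90e-31). MT-CO1, the catalytic subunit of cytochrome c oxidase, had 95590 and 157423 in batch 2 against 182752 and 231600 in batch 1 (-0.75, SE 0.08, adjusted p = 3.00e-17). For both genes the highest batch 2 library lay below the lowest batch 1 library. The batches did not overlap, in either direction, for 33.9% of all genes tested. MT-CYB of complex III had 17329 and 26834 in batch 2 against 31930 and 37750 in batch 1 (-0.69, SE 0.07). MT-ND6, the only mRNA on the light strand, had 6324 and 10309 in batch 2 against 11756 and 13901 in batch 1 (-0.66, SE 0.06). Genes annotated on both mitochondrial strands were therefore lower. Without a stated strand setting of counting, reads from the strands cannot be told apart. MT-ND3, another complex I subunit, had the smallest difference of the 12, with 6972 and 7863 in batch 2 against 9325 and 8777 in batch 1 (-0.29, SE 0.06, adjusted p = 7.89e-04). MT-ATP8, the mRNA that was not called, had only 17.2 and 26.8 normalized counts in batch 2 against 27.4 and 63.6 in batch 1 (-0.93, SE 0.34, adjusted p = 0.152).

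The ribosomal RNA MT-RNR2 had 115738 and 152422 normalized counts in batch 2 against 186736 and 209319 in batch 1 (-0.57, SE 0.08, adjusted p = 9.27e-10), and MT-RNR1 differed by -0.67. Among the tRNAs, MT-TY had 599 and 854 in batch 2 against 1166 and 1440 in batch 1 (-0.86, SE 0.08), whereas MT-TW, near the lower limit, was at 22.2 and 22.9 against 29.5 and 14.1 and was not called. The nuclear pseudogene MTATP6P1, a near copy of part of the mitochondrial genome, differed by -0.69, and its reads cannot be told apart from mitochondrial ones. The number of mRNAs called lower was 12 with scaling to the nuclear-encoded total as well. Without batch 2 RM+ it was 1, with a median of -0.39; it was 10 without batch 2 RM-, 1 without batch 1 RM+ and 0 without batch 1 RM-.

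**Figure D2:**
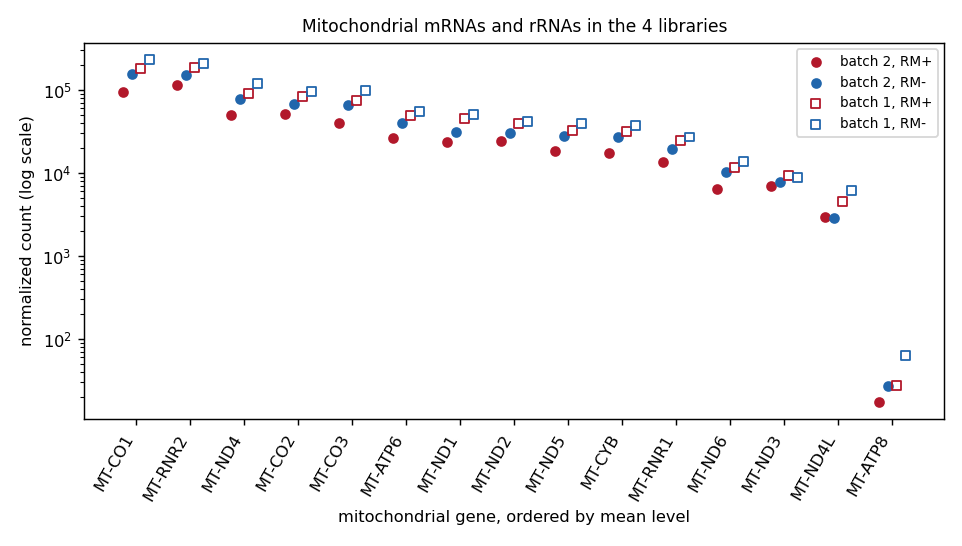
Normalized counts (log scale) of the 13 mitochondrial mRNAs and 2 rRNAs in the 4 libraries, with batch 2 as filled circles and batch 1 as open squares (red RM+, blue RM-). For every gene both batch 2 values lie below both batch 1 values, by little for MT-ATP8 and MT-ND3.

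Nuclear-encoded genes of the same organelle did not follow. Of 50 nuclear respiratory chain genes, 2 were called higher and 0 lower, with a median of 0.07, and 40 of the 50 were above 0. Nuclear protein-coding genes averaging 100 or more normalized counts had a median of 0.03. Among all genes tested 0.34% were called higher. COX7C, a small subunit of cytochrome c oxidase, had 3697 and 4164 normalized counts in batch 2 (RM+ and RM-) against 3182 and 3466 in batch 1 (0.24, SE 0.07, adjusted p = 0.0179). NDUFA1, an accessory subunit of complex I, had 1626 and 1500 in batch 2 against 1365 and 1232 in batch 1 (0.27, SE 0.08, adjusted p = 0.0233). ATP5ME, a subunit of ATP synthase, had 685 and 693 in batch 2 against 547 and 542 in batch 1 (0.34, SE 0.09, adjusted p = 0.0195). The batches did not overlap for any of the 3, as for 339 of the 368 genes called and 33.9% of all genes tested. Of 36 mitochondrial ribosomal protein genes, MRPL17 (0.28, adjusted p = 0.0244) and MRPS7 (0.26, adjusted p = 0.0251) were called higher and 0 lower, with a median of 0.02 that was -0.02 with scaling to the nuclear-encoded total. COX7C, NDUFA1, ATP5ME, MRPL17 and MRPS7 were not called under that scaling, with differences between 0.20 and 0.30. When a trend on transcript GC was removed from each library, as described further on, COX7C (0.16), MRPL17 (0.24) and MRPS7 (0.26) were not called and NDUFA1 (0.29) was. COX8A, another nuclear respiratory chain gene, was at 0.22 and not called before, and was then called at 0.29. The median of the 50 nuclear respiratory chain genes was then 0.04.

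Of 9 lncRNAs tested from a list of mostly nuclear-retained ones, 3 were called lower in batch 2 and 0 higher, with a median of -0.24. Among all genes tested 1.75% were called lower. The 3 were MALAT1, NEAT1 and MEG3, and the other 6 were not called. MALAT1 (GRCh38 chr11:65497688-65506516, plus strand) had 1961 and 2158 normalized counts in batch 2 (RM+ and RM-) against 4112 and 3211 in batch 1 (-0.82, SE 0.07, adjusted p = 2.65e-30). NEAT1 (chr11:65422774-65445540), the scaffold of paraspeckles, had 4900 and 6940 in batch 2 against 10789 and 9209 in batch 1 (-0.77, SE 0.06, adjusted p = 1.41e-30). MEG3, an imprinted lncRNA, had 74.7 and 104 in batch 2 against 184 and 192 in batch 1 (-1.08, SE 0.18, adjusted p = 3.28e-07). In all 3 the batches did not overlap, as for 339 of the 368 genes called and 33.9% of all genes tested. In each of them the RM+ pair differed more than the RM- pair, as in MALAT1 with -1.07 in RM+ and -0.57 in RM-.

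Among the other 6, FTX (-0.24, adjusted p = 0.178) and LINC-PINT (-0.29, adjusted p = 0.340) were below 0 in both conditions, and NORAD (0.10), OIP5-AS1 (0.06), TUG1 (-0.03) and KCNQ1OT1 (-0.20) were not called either. NORAD, which the list holds although it is known mainly from the cytoplasm, had 6467 and 6587 normalized counts in batch 2 against 6239 and 5930 in batch 1. TALAM1, antisense to MALAT1, was listed at nearly the same values as MALAT1 in every library (-0.82), and without a stated strand setting their reads cannot be told apart. Of the 9 lncRNAs, 1 was called lower without batch 2 RM+, 3 without batch 2 RM-, 0 without batch 1 RM+ and 0 without batch 1 RM-.

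Host genes of small nucleolar RNAs carry those RNAs in their introns. Of 21 tested, 4 were called lower and 0 higher, with a median of -0.11, beside 1.75% called lower among all genes tested. SNHG3 had 472 and 598 normalized counts in batch 2 (RM+ and RM-) against 623 and 874 in batch 1 (-0.47, SE 0.09, adjusted p = 8.02e-05). SNHG12 had 52.5 and 58.3 in batch 2 against 118 and 97.9 in batch 1 (-0.94, SE 0.22, adjusted p = 0.00266). SNHG4 differed by -0.37 and SNHG1 by -0.29. Other hosts were close to equal, such as SNHG29 at 4796 and 5300 in batch 2 against 4530 and 5028 in batch 1. The median became 0.02 without batch 2 RM+, and 0 of the 4 calls was made when any 1 library was left out.

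Of 26 immediate-early genes tested, 7 were called lower in batch 2 and 0 higher, against 1.75% and 0.34% of all genes tested. The immediate-early median was -0.16 (-0.20 in RM+ and -0.13 in RM-), and 23 of the 26 were below 0, 19 of them in both conditions. The called genes fell into the FOS family member FOSB, which pairs with JUN proteins, the orphan nuclear receptors NR4A1 and NR4A2, the salt-inducible kinase SIK1, the zinc-finger factors EGR1 and KLF2, and ZFP36, which promotes decay of AU-rich mRNAs. FOSB (chr19:45467995-45475179, plus strand) had 1325 and 1406 normalized counts in batch 2 (RM+ and RM-) against 2923 and 2274 in batch 1 (-0.92, SE 0.07, adjusted p = 6.21e-34). Its fold was 0.53 of batch 1, and ERCC1, which overlaps it on the other strand, differed by 0.02.

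The bases before the start of FOSB are shown because FOSB had the largest difference of the group. Several of these genes are known to respond through the cAMP response element, TGACGTCA. The 5 bases TGACG are only a part of that element. The window is the 250 bases upstream in RefSeq (GRCh38.p14, chr19:45467746-45467995, plus strand), with TGACG in capitals.

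FOSB: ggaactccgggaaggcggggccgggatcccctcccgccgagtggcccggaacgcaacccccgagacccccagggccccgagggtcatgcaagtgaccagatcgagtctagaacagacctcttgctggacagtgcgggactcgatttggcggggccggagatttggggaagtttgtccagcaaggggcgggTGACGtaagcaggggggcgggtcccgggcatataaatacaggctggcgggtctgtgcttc

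TGACG starts 60 bases before the start, the full element TGACGTCA is not in the window, and 65.6% of the window is G or C. TGACG or its complement CGTCA was in the window of 3 of the 6 called immediate-early genes that matched a RefSeq window by symbol, in 10 of the 15 matched genes that were not called, and in 29.1% of the 11844 matched genes tested. The full element was in the window of 0 of the 6, in 1 of the 15 and in 2.8% of the 11844. These are matches of letters only.

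NR4A1 had 5972 and 4579 normalized counts in batch 2 (RM+ and RM-) against 9390 and 6394 in batch 1 (-0.57, SE 0.06, adjusted p = 4.60e-16). Here the batch 2 RM+ library lay only a little below the batch 1 RM- library. NR4A1AS, on the opposite strand, differed by -0.61, and reads of the pair cannot be told apart. NR4A2 had 569 and 562 in batch 2 against 902 and 747 in batch 1 (-0.54, SE 0.09, adjusted p = 1.21e-06). KLF2 had 182 and 217 in batch 2 against 250 and 325 in batch 1 (-0.52, SE 0.13, adjusted p = 0.00953). EGR1 (-0.25, adjusted p = 0.00781) and ZFP36 (-0.29, adjusted p = 0.0238) differed less.

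SIK1 had 201 and 91.8 normalized counts in batch 2 (RM+ and RM-) against 463 and 132 in batch 1 (-0.86, SE 0.15, adjusted p = 3.07e-06), so its batches overlapped across conditions. SIK1B, a near-identical copy, held more of the counts, with 2016 and 2745 in batch 2 against 2625 and 2350 in batch 1 (-0.08). The sum of the copies differed by -0.14, so the SIK1 value is uncertain. Without batch 1 RM+ the SIK1 difference was 0.04. That fit has no block and sets both conditions of batch 2 against batch 1 RM- alone, so the difference between conditions enters it. Within the conditions SIK1 differed by -1.20 in RM+ and -0.52 in RM-.

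The founding members of the class were not called. FOS had 5860 and 5914 normalized counts in batch 2 against 6957 and 6118 in batch 1 (-0.15, adjusted p = 0.259), JUN differed by -0.13 (adjusted p = 0.376), and MYC by -0.01, with 2150 and 2363 in batch 2 against 2147 and 2399 in batch 1. Lists that often move with this class differed in their calls. Of 18 ERK feedback genes 0 were called, with a median of -0.08. Of 23 NF-kB and inflammatory genes 3 were called lower: LIF, an interleukin-6 family cytokine, with 2214 and 2440 in batch 2 against 3130 and 2860 in batch 1 (-0.36, adjusted p = 2.07e-05), NFKBIZ (-0.44, adjusted p = 0.00567) and TNFAIP2 (-0.23, adjusted p = 0.0190). These 3 were 13.0% of the NF-kB list, against 1.75% of all genes tested that were called lower. The NF-kB list had a median of -0.01 that was 0.01 in the RM- libraries. The number of immediate-early genes called lower was 1 without batch 2 RM+, 1 without batch 2 RM-, 0 without batch 1 RM+ and 0 without batch 1 RM-.

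**Figure D3:**
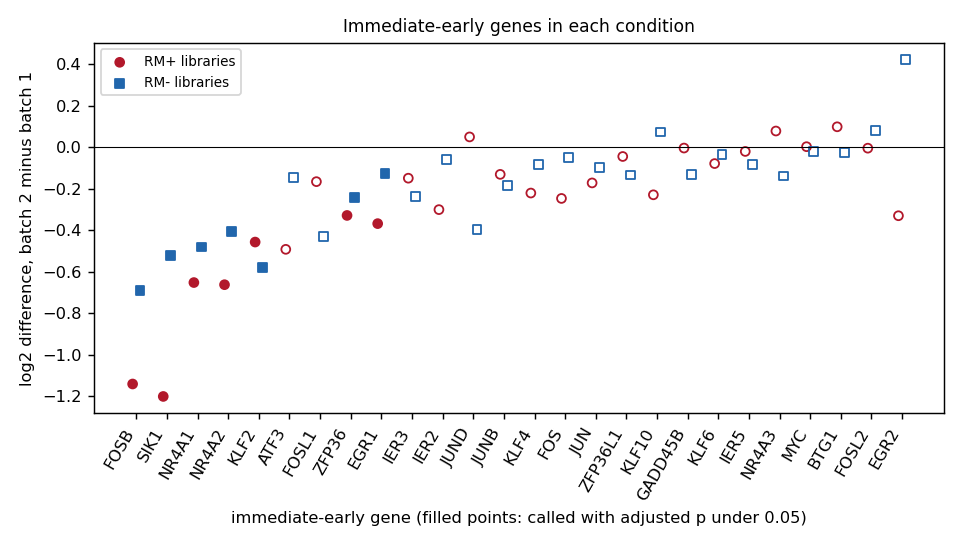
Log2 difference, batch 2 minus batch 1, of the 26 immediate-early genes tested, in the RM+ libraries (red circles) and the RM- libraries (blue squares), ordered by their combined difference, with filled points for the 7 called. FOSB and SIK1 are at -1.14 and -1.20 in RM+ and at -0.69 and -0.52 in RM-, while MYC lies at 0.00 and -0.02.

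Genes of pre-mRNA splicing and their like formed a smaller set. Of 25 splicing factors known for retained introns or poison exons, 3 were called lower and 0 higher, with a median of -0.04. The share called lower over all genes tested was 1.75%. DDX39B (chr6:31530219-31542448), an RNA helicase of splicing and mRNA export, had 383 and 556 normalized counts in batch 2 (RM+ and RM-) against 816 and 867 in batch 1 (-0.86, SE 0.09, adjusted p = 1.65e-17). DDX39B overlaps 1 gene on its own strand and 2 on the other, so its value is uncertain where reads were shared. HNRNPH1 (-0.27, adjusted p = 0.00266) and SNRNP70 (-0.22, adjusted p = 0.0293) differed less, and the SR protein genes SRSF5, SRSF6 and SRSF10 were between -0.01 and 0.00. 2 related genes outside the list were taken up after their values were seen. LENG8 (chr19:54448887-54462016), whose product is linked to mRNA retention in the nucleus, had 1904 and 2441 in batch 2 against 3845 and 3718 in batch 1 (-0.81, SE 0.07, adjusted p = 6.87e-30). SRRM2, a scaffold of nuclear speckles, had 9719 and 9964 in batch 2 against 13346 and 11430 in batch 1 (-0.33, SE 0.06, adjusted p = 5.45e-05).

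Calls lower in batch 2 were more frequent among genes with 2 properties that the comparison did not use, although not every gene called lower had them. MALAT1 had a GC percent of 40.3, and the mitochondrial mRNAs have no introns. The first was the base composition of the transcript, examined in nuclear protein-coding genes averaging 100 or more normalized counts, which held 189 of the 308 genes called lower. Among these 10664 genes the batch difference had a Spearman correlation of -0.56 with the GC percent of the longest transcript (-0.39 in RM+ and -0.49 in RM-, pairs without a common library). In the GC bin (each bin holding 25% of these genes) with the highest values, above 56.2%, 133 of 2666 genes were called lower and 1 higher, with a median difference of -0.08. In the bin with the lowest, below 41.7%, 7 were called lower and 25 higher, with a median of 0.10. The median GC was 60.6% for the called lower genes and 40.7% for the called higher genes, beside 47.9% for all.

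The second was the number of retained-intron transcripts that GENCODE 29 annotates for the gene. Of 967 genes with 6 or more such transcripts, 64 were called lower (6.62%), against 27 of 4266 genes with none (0.633%). Within the top GC bin the shares were 12.4% and 1.80%, and in the other 3 bins together 3.15% and 0.301%. WDR90, with 13 such transcripts, had 400 and 381 normalized counts in batch 2 (RM+ and RM-) against 653 and 588 in batch 1 (-0.67, SE 0.10, adjusted p = 2.03e-08). MAN2C1, an alpha-mannosidase gene with 27, had 1321 and 1594 in batch 2 against 1979 and 1748 in batch 1 (-0.36, SE 0.07, adjusted p = 1.82e-04). WDR90 and MAN2C1 were also chosen after their values were seen, and genes with many annotated transcripts have more of every kind.

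**Figure D4:**
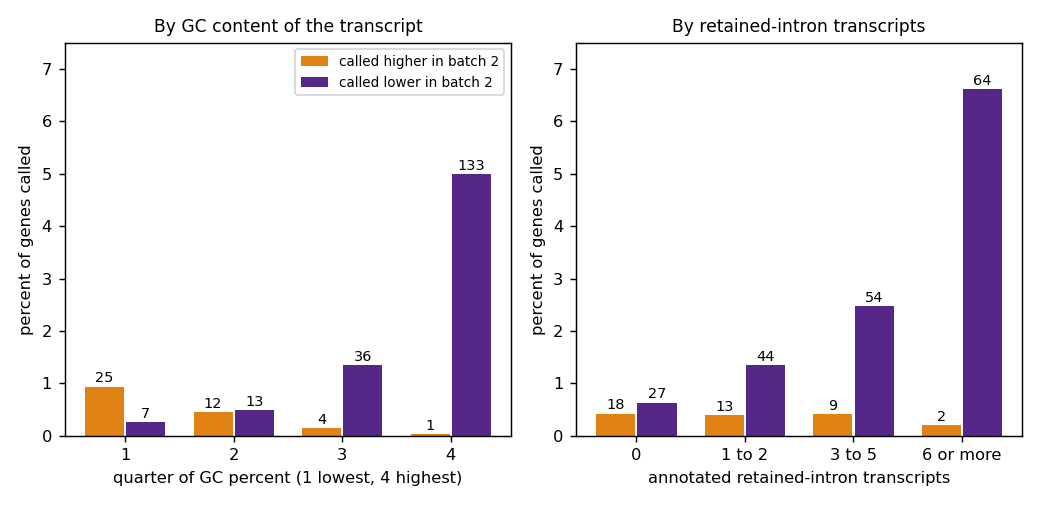
Percent of nuclear protein-coding genes averaging 100 or more normalized counts that were called higher (orange) or lower (purple) in batch 2, by bin of transcript GC percent (left) and by annotated retained-intron transcripts (right), with the number of genes called above each bar. Calls lower in batch 2 rise from 7 in the lowest GC bin to 133 in the highest, while calls higher run the other way, and genes with 6 or more retained-intron transcripts hold 64 calls.

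When a smooth trend on GC was taken out of each library, 191 genes were called (20 higher, 171 lower), 177 of them among the 365 earlier calls that had a GC value. The mitochondrial mRNAs kept 12 calls and a median of -0.73. The 9 lncRNAs had 4 calls, MALAT1 at -0.90, NEAT1 at -0.83, MEG3 at -1.11 and FTX at -0.33. The snoRNA host genes had 4 calls. The immediate-early genes had 4 calls: FOSB at -0.85, SIK1 at -0.80, NR4A2 at -0.57 and NR4A1 at -0.48, with EGR1, KLF2 and ZFP36 no longer called. DDX39B was at -0.88 and LIF at -0.31, both still called. Of the 2 called extracellular matrix genes, COL7A1 was still called (-0.32) and LAMA5 was not. SNRNP70 (-0.09) and TNFAIP2 (-0.12) were not called either. Whether the GC trend came from the cells or from library preparation was not tested.

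Genes higher in batch 2 differed by smaller amounts. LDHB, the heart-type lactate dehydrogenase subunit, had 1305 and 1834 normalized counts in batch 2 (RM+ and RM-) against 1081 and 1279 in batch 1 (0.40, SE 0.08, adjusted p = 4.44e-05). REL, an NF-kB subunit, had 276 and 322 in batch 2 against 201 and 222 in batch 1 (0.49, SE 0.13, adjusted p = 0.0130). ATP11B, a phospholipid flippase, had 814 and 857 in batch 2 against 615 and 703 in batch 1 (0.35, SE 0.09, adjusted p = 0.00818). In these 3 genes the lower batch 2 library was above the higher batch 1 library. The batches did not overlap in either direction for 33.9% of all genes tested. USF3 (0.40, adjusted p = 0.0126) and LRRCC1 (0.47, adjusted p = 0.0307) were also called, and REL, ATP11B, USF3 and LRRCC1 all had a GC percent under 42. With the GC trend removed these 4 were no longer called (0.26 to 0.41), while LDHB was. SLC7A11-AS1 (0.31, adjusted p = 0.0214) and an unnamed gene, ENSG00000196656 (0.66, adjusted p = 0.0182), were the other genes of the 12 with the largest increase in both conditions, beside ATP5ME and the copies given below.

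Of 75 cytoplasmic ribosomal protein genes, 3 were called higher and 1 lower, with a median of 0.08, and 62 were above 0. Among all genes tested 0.34% were called higher and 1.75% lower. RPS14 had 13697 and 16583 normalized counts in batch 2 (RM+ and RM-) against 11830 and 13418 in batch 1 (0.26, SE 0.06, adjusted p = 0.00540), RPL39 differed by 0.27 and RPL24 by 0.22. The median was -0.0021 without batch 1 RM+ and 0.05 with scaling to the nuclear-encoded total. Of 30 hypoxia-inducible genes, PLOD2, a collagen lysyl hydroxylase, had 5537 and 6898 in batch 2 against 4787 and 5642 in batch 1 (0.25, adjusted p = 0.00818), BNIP3L, a mitophagy receptor, was at 0.25 (adjusted p = 0.0148), and the list median was 0.11 with 0 called lower. With the GC trend removed PLOD2 (0.16), BNIP3L (0.17), RPL39 (0.23) and RPL24 (0.16) were not called.

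Several of the largest differences belonged to genes with close copies, which the pairs below, chosen after their values were seen, show. U2AF1, the small subunit of the U2 auxiliary factor, was listed at 477 and 140 normalized counts in batch 2 (RM+ and RM-) against 37.6 and 16.1 in batch 1 (3.33). U2AF1L5, its duplicate, which carries the gene type artifact in the annotation, was listed at 43.4 and 33.5 in batch 2 against 57.9 and 793 in batch 1. The sum of U2AF1 and U2AF1L5 differed by 0.11, with no order between the batches. EIF3C, a translation initiation subunit, had 369 and 954 in batch 2 against 1394 and 1739 in batch 1 (-1.39, SE 0.08), and the sum with its copy EIF3CL differed by -1.23. MTX1P1 (0.91), SPCS2P4 (0.93) and FABP5P7 (0.56) are pseudogenes whose parent genes MTX1 (-0.12), SPCS2 (0.12) and FABP5 (0.04) were not called. All of these values are uncertain to the extent that the counting split reads among copies.

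Among the 12 genes lower in batch 2 with the largest difference in both conditions, MIR34AHG, the host of a p53-induced microRNA, had 83.8 and 94.6 normalized counts in batch 2 (RM+ and RM-) against 250 and 173 in batch 1 (-1.21, SE 0.17, adjusted p = 9.56e-10). The p53 targets as a list did not follow it, with 0 of 29 called and a median of -0.03. EIF4A1, an RNA helicase of translation initiation with 16 annotated retained-intron transcripts, had 109 and 145 in batch 2 against 276 and 260 in batch 1 (-1.09, SE 0.15, adjusted p = 3.12e-10). SENP3-EIF4A1, which overlaps EIF4A1 on the same strand, had 5.05 and 5.74 in batch 2 against 6.10 and 4.04 in batch 1. How reads shared by this pair were counted is not known here, so the EIF4A1 value is uncertain. LINC00342 (-1.08), MROH6 (-0.89), CCDC78 (-0.82) and FMNL1-DT (-0.74) completed the named set together with MT-ND1, MT-TY, MEG3, FOSB, EIF3C and an unnamed lncRNA, ENSG00000261786 (-0.77). The rule that picked these 12 required each to be lower in batch 2 in both conditions.

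Single genes of other programmes were also lower in batch 2. HES1, a Notch effector, had 290 and 294 normalized counts in batch 2 (RM+ and RM-) against 508 and 415 in batch 1 (-0.65, SE 0.11, adjusted p = 2.51e-06), and it was the only 1 of 15 Notch pathway genes called. COL7A1, the anchoring-fibril collagen, had 1754 and 2031 in batch 2 against 2878 and 2368 in batch 1 (-0.47, SE 0.07, adjusted p = 9.57e-09), and LAMA5, a laminin chain, differed by -0.24. FASN, fatty acid synthase, had 12316 and 10373 in batch 2 against 15039 and 11904 in batch 1 (-0.24, adjusted p = 0.0107), with its batches overlapping across conditions. MLXIPL, a glucose-sensing transcription factor, differed by -0.55 and SMAD6, an inhibitor of BMP signalling, by -0.24. MUC5B, a gel-forming mucin, was called lower (-0.28, adjusted p = 0.00134) but had 6529 and 11412 in batch 2 against 10226 and 10735 in batch 1. Its RM- pair differed by 0.09, so only the RM+ pair carried that call. With the GC trend removed FASN (-0.09), MLXIPL (-0.42), SMAD6 (-0.16) and MUC5B (-0.14) were not called.

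Most lists of A549 programmes had no call. Over all genes tested 2.09% were called, so 0 calls in a short list does not by itself show a stable programme. Of the 61 lists with a member tested, 42 had 0 calls, and the medians of the larger ones lay near the 0.02 of all genes. S phase and DNA replication genes (0 of 28 called, median 0.05), G2/M and mitosis genes (0 of 27, 0.07) and proteasome subunits (0 of 30, 0.08) had batch differences with no call. The same held for NRF2 targets (0 of 27, 0.02), the unfolded protein response (0 of 22, 0.07), ATF4 and amino acid response genes (0 of 28, 0.01) and heat shock proteins (0 of 20, 0.08). Cholesterol synthesis and uptake (0 of 25, 0.07), interferon-stimulated genes (0 of 28, 0.03), YAP/TAZ targets (0 of 25, 0.06), SRF and actin cytoskeleton genes (0 of 25, 0.00) and integrins and focal adhesion (0 of 22, 0.03) had none either. A difference of the size seen in highly expressed genes such as EGR1, at an SE of 0.06, could be called, while for a gene such as EGR2, at 23.2 and 44.9 in batch 2 against 29.5 and 33.3 in batch 1, the SE was 0.33.

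**Figure D5:**
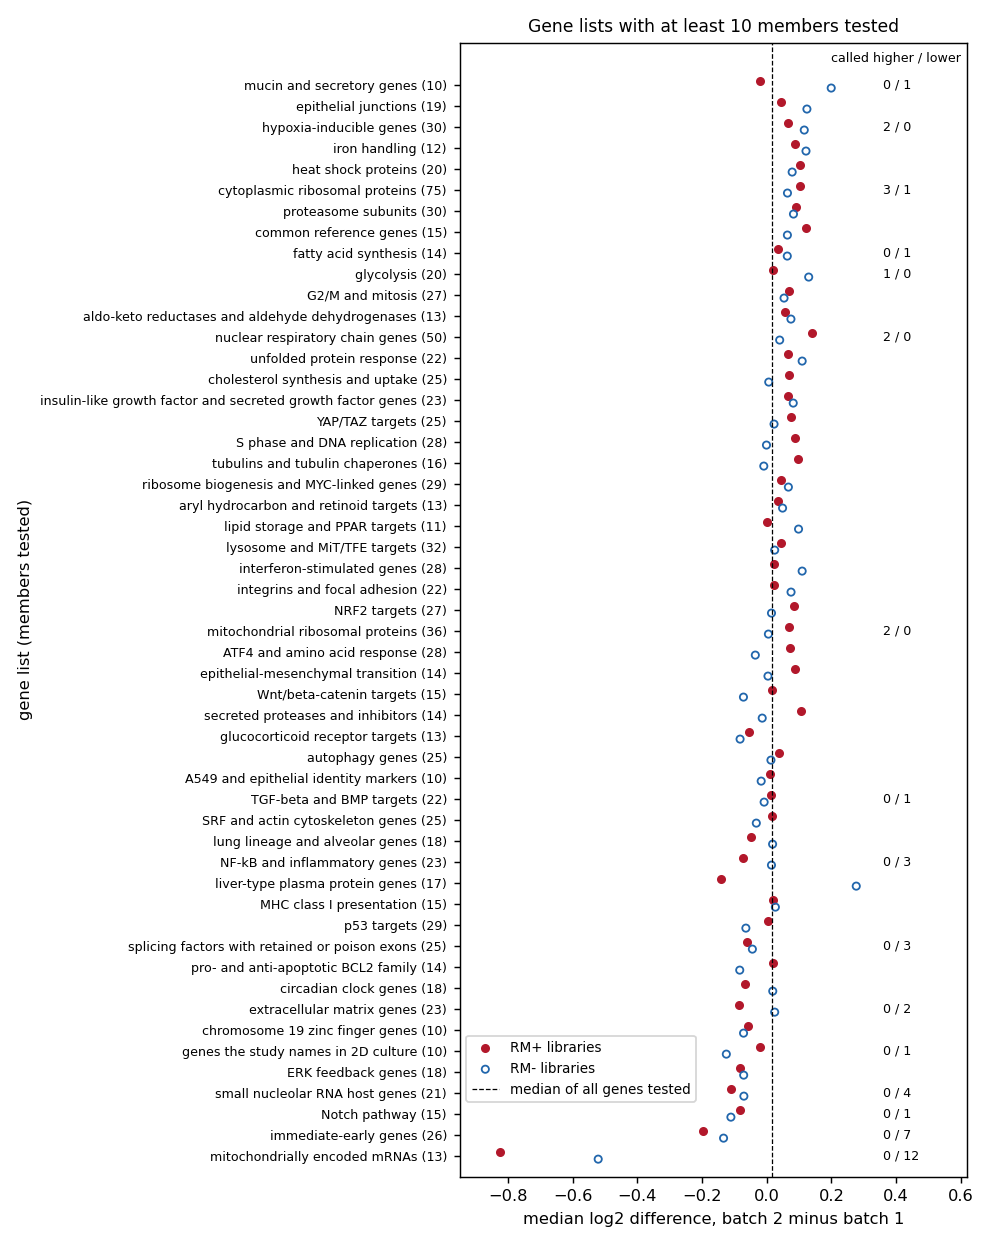
Median log2 difference, batch 2 minus batch 1, of each gene list with at least 10 members tested, in the RM+ libraries (filled red) and the RM- libraries (open blue), with the numbers called higher and lower at the right and the median of all genes as a dashed line. The mitochondrially encoded mRNAs stand at -0.83 and -0.52 at the bottom, followed by the immediate-early genes at -0.20 and -0.13, and most other lists lie within 0.2 of 0.

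A list of 10 genes that the study names or measured by qRT-PCR, among them its housekeeping gene GAPDH, had 1 call, SIK1. CDKN1A, the p21 cell cycle inhibitor, had 2399 and 1035 normalized counts in batch 2 (RM+ and RM-) against 2420 and 1183 in batch 1 (-0.10, SE 0.07, adjusted p = 0.569). CA9, carbonic anhydrase IX, had 142 and 589 in batch 2 against 145 and 478 in batch 1 (0.14, SE 0.13, adjusted p = 0.696). For both genes the spread between conditions within a batch was wider than that between batches within a condition. NR4A3, a nuclear receptor related to the called NR4A1 and NR4A2, had 155 and 63.1 in batch 2 against 147 and 69.6 in batch 1 (-0.03, SE 0.20). SUSD2 (-0.24, adjusted p = 0.259), CCN2 (-0.16, adjusted p = 0.245), ITGB1 (0.13), CCND1 (-0.06), EFNA1 (-0.10) and GAPDH (0.08) were not called.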

How the data were processed

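Per the labels and the submitters' processing notes, poly(A) libraries (NEBNext Ultra II Directional) of A549 cells were sequenced on a NovaSeq X Plus, and the tools listed are HISAT2 2.1.0, featureCounts 1.6.3, DESeq2 1.24.0, Trimmomatic 0.38 and FastQC 0.11.7, with hg38/GRCh38 as the build. The sources used here do not give the strand setting of counting. The authors deposited 1 table with a normalized count signal for each of the 4 libraries. Every value in a library was a whole multiple of its smallest value above 0 (tolerance 1e-06), which gave the totals of reads. Count tests were not run because an automated check of units did not accept 2 of the 4 columns as recovered reads. The deposited log2, score, p-value and other columns of the authors' own RM comparison were not used.

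Genes with at least 10 in at least 2 libraries were tested in R 4.3.3 with limma 3.58.1 (trended empirical Bayes) on log2(value + 1), batch with the condition as block. The replicate numbers follow the condition, so the block pairs the batches by condition. The study reports independent replication of its key 2D experiments, but no source used here says that the sequenced libraries of the batches came from separate cultures, so the spread behind each p-value may be technical. Members, lists and tests were chosen with earlier results of these data known. Named genes were: 12 higher and 12 lower with a mean of at least 100 and the largest smaller difference of the 2 conditions, up to 4 per list by p, all of lists with 15 or fewer members tested, and the study's own genes. Genes named outside this rule, as examples or for contrast, were chosen after their values were seen. GC, transcript length and retained-intron transcripts came from GENCODE 29, where 29322 of 30843 genes matched. Promoter windows came from RefSeq. Alternatives changed the block, scaling, filter, pseudocount (0.5, 5), trend, gene set, GC trend and libraries. GC removal, robust moderation and the restriction to protein-coding genes without overlap were added after seeing the data. The values of 1 called gene are not reported here.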

Additional observations from a re-analysis of the deposited data

Results flagged for a closer look

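4 results had opposite signs in the 2 conditions, each beyond 0.1, and the difference between the conditions was not tested. Replication-dependent histone genes had a median batch difference of 0.14 in RM+ and -0.22 in RM-. The glucose-sensing TXNIP and ARRDC genes had medians of 0.14 in RM+ and -0.14 in RM-. Liver-type plasma protein genes had medians of -0.14 in RM+ and 0.28 in RM-. EFNA1, an ephrin ligand, differed by -0.31 in RM+ and 0.10 in RM-, with 93.9 and 242 normalized counts in batch 2 (RM+ and RM-) against 117 and 225 in batch 1.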

How the results depend on the processing

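Without the condition as a block, without the filter, without the trend on the mean, and with the GC trend removed and no block, 0 genes were called in either direction, and 0 members of the mitochondrial mRNA, nuclear-retained lncRNA, immediate-early or snoRNA host lists; 765, 1706, 1370 and 514 genes had an unadjusted p under 0.05. In the same order, the prior degrees of freedom were 6.61, 2.95, 1.90 and 6.55, against infinite in the main fit. The cause was not tested. With a mean of at least 100, 206 genes were called (20 higher, 186 lower), the snoRNA host median was -0.059 and 1 host was called. Among 5049 protein-coding genes without overlap, 106 were called (19 higher, 87 lower), the immediate-early median was -0.21, and 0 lncRNA or snoRNA host members were called because few or none belong to that set. With the GC trend removed, 191 were called (20 higher, 171 lower), and 4 immediate-early genes. Scaling to the nuclear-encoded total, which moved the median of all genes to -0.02, gave 22 higher and 407 lower (5.13% higher, against 16.3%) and a snoRNA host median of -0.15. In the RM- libraries alone the snoRNA host median was -0.071, the NF-kB median 0.015 and MUC5B 0.088. The NF-kB median was 0.024 among protein-coding genes without overlap. With 1 library left out, which removes the block and takes the lone library to vary like the others, calls ranged from 0 to 59 (higher 0 to 3, lower 0 to 56), mitochondrial mRNAs called from 0 to 10 (median -1.002 to -0.39), nuclear-retained lncRNAs from 0 to 3, immediate-early genes from 0 to 1 (median -0.24 to -0.11) and snoRNA hosts 0 (median -0.17 to 0.016, the last without batch 2 RM+). With 1 library left out the NF-kB median ranged from -0.093 to 0.057 (0.041 without batch 2 RM+), the cytoplasmic ribosomal median from -0.0021 (without batch 1 RM+) to 0.161, the batch difference of SIK1 from -1.76 to 0.040 (without batch 1 RM+), MUC5B from -0.68 to 0.12 (without batch 2 RM+) and SNHG1 from -0.60 to 0.024 (without batch 2 RM+). The values with a library left out also hold part of the difference between RM+ and RM-, because the conditions are then unequal between the batches. Of the 368 genes called, 364 to 368 kept their sign in every setting that tested all of them. Trimmed-mean scaling, pseudocounts, robust moderation and a filter over all 4 libraries gave 368 to 377 calls. edgeR, DESeq2 and limma-voom were planned and not run, because a check of units did not accept 2 of the 4 columns as recovered reads. Low counts limit what could be called: 5 of the 368 genes had a mean under 20.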
